A study of Homo sapiens with 16 samples.

Results

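The genes described here are 8 genes of apoptosis, the death ligand TNFSF10, the death receptor FAS, the initiator caspases CASP8 and CASP9, the survival genes BCL2L1 and MCL1, and the death-promoting BCL2 family genes BAX and BCL2L11. They were chosen by symbol, as textbook components of the extrinsic and intrinsic routes, and all 8 had a row in the count tables, which list 20314 genes for U251 cells and 20626 for U343 cells. Reads per gene were counted in 16 libraries, with 2 libraries for each combination of cell line (U251 or U343, both established human glioblastoma lines), assay and transfection. RNASeq measured total RNA, and RIPSeq measured RNA recovered with antibodies to PABP, the protein that binds poly(A) tails. The mimics, of miR-137 or of a control sequence, were used at 25 nM, with 48 hours before harvest. Both groups were therefore transfected cells, no untransfected cells were analysed here, and the mimic raises miR-137 from outside the cell. The labels number the libraries as replicates without saying that they came from separate cultures, so p-values measure the spread between libraries, which may be technical. U251 cDNA was made by random-hexamer priming and U343 cDNA by a TotalScript kit, and both were then prepared with Nextera kits, of different suppliers. Cell line and library kit therefore cannot be told apart.

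Apoptosis is cell death carried out by caspases, proteases that are activated in a cascade. In the extrinsic route a ligand such as TRAIL, the product of TNFSF10, binds a receptor, and the receptor complex activates caspase 8. In the intrinsic route BCL2L11 and other BH3-only proteins release BAX from its inhibitors, among them the BCL2L1 and MCL1 products, mitochondria leak cytochrome c, and caspase 9 is activated. Transcripts of TNFSF10, FAS and CASP8 are known to be raised by interferons, and FAS and BAX are known targets of p53. A microRNA lowers its direct targets through pairing of its seed with their transcripts.

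The sequence that defines the treatment is the mature miR-137, given here as RefSeq lists it on GRCh38.p14 at chr1:98046091-98046113 on the minus strand, with the seed, bases 2 to 8, in capitals. No other mature human miRNA in that table has the same seed. The labels do not give the sequence of the mimic itself.
hsa-miR-137-3p: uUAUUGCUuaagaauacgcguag

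Promoter windows of 300 bases around the annotated gene starts were matched for all of the 8 genes except MCL1. They were searched on both strands for the letters of an interferon-stimulated response element, which are GAAA, any 2 bases and GAAA again, and for TTCNNNGAA, the letters of a STAT site. The first was found in TNFSF10 and CASP8, the genes with the largest rises below, and in no other of the matched genes. It occurs in 3.57% of all 35116 RefSeq promoter windows, and in at least 1 window of 4.38% of the 27305 genes, since a gene such as CASP8 can have several windows. The second was found in CASP8 alone and occurs in 7.66% of the windows and in 9.38% of the genes. The matches are shown with 10 bases on either side and the matching letters in capitals. They are matches of letters and not measured sites.
TNFSF10, chr3:172523598-172523627 of GRCh38.p14, minus strand, match from 187 to 178 bases before the start: gaggagcttcTTTCAGTTTCcctcctttcc
CASP8, chr2:201233450-201233479 of GRCh38.p14, plus strand, match from 3 bases before to 7 bases into the gene: gagtttttggTTTCTGTTTCaccttgtgtc
CASP8, chr2:201233253-201233282 of GRCh38.p14, plus strand, match to TTCNNNGAA from 200 to 192 bases before the start: aaaattatttTTCCAAGAAgaaaataaacc

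Libraries held 10156675 to 18224061 counted reads in U251 RNASeq, 22359794 to 30731476 in U251 RIPSeq, 37952273 to 45134766 in U343 RNASeq and 37736206 to 45055184 in U343 RIPSeq. Marker genes were read in the RNASeq libraries, in counts per 1000000 counted reads (CPM) without further scaling. VIM, NES, CD44 and SOX2, which mark glioma cells, were present in both lines. The astrocyte gene GFAP had 3.64 to 29.5 CPM in U251 and 3227 to 4701 CPM in U343. S100B, listed with these genes, was low, with 0.195 to 1.60 CPM in U251 and 2.19 to 10.5 CPM in U343. The pan-leukocyte marker PTPRC and the epithelial marker EPCAM stayed below 1 CPM in every RNASeq library. The cadherins CDH1, also listed as epithelial, and CDH5, listed as endothelial, had 61.7 to 123 and 8.65 to 27.2 CPM in U343. In U251 both stayed below 1 CPM. The markers listed for epithelium and for endothelium thus went both ways in U343. CD68, a macrophage marker that other cells also express, had 3.58 to 93.9 CPM over both lines, the endothelial PECAM1 stayed below 1 CPM and the neuronal SNAP25 below 6 CPM. AIF1 and RBFOX3 were not analysed here. All levels given below are CPM scaled with TMM factors, and they are compared between libraries, never between genes.

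A pair of experiments contained libraries that stood apart. In U343 RNASeq, miR137 replicate 1 had a summed level of 250.4 CPM over 12 interferon response genes, like the controls (249.5 and 243.9 CPM), whereas replicate 2 had 13165.7 CPM. The other miR-137 libraries of either line had 8614.7 to 12519.1 CPM, and no control library exceeded 249.5 CPM. Replicate 1 nevertheless departed from the controls at other genes of the apoptosis pathway: BOK, a relative of BAX, had 5.08 CPM in it and 2.85 CPM in replicate 2, against 0.563 and 0.264 CPM in the controls. In U251 RIPSeq the control libraries differed from each other by a median of 0.68 on the log2 scale over all genes tested, against 0.07 between the miR-137 libraries. Results of these experiments are therefore given also without these libraries.

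TNFSF10 (hg18, chr3:173706158-173723963) had the largest rise of the 8 genes. In U251 RNASeq it went from 5.56 and 7.77 CPM with the control mimic to 60.8 and 65.5 CPM with the miR-137 mimic, and edgeR called it higher by 9.45-fold (log2 fold change 3.24 ± 0.17, SE, adjusted p = 6.8e-09). In U343 RIPSeq it went from 5.56 and 3.37 to 299.4 and 273.5 CPM (log2 fold change 5.99 ± 0.21, adjusted p = 1.2e-06). In U251 RIPSeq the controls had 2.75 and 6.16 CPM and the miR-137 libraries 128.1 and 136.3 CPM, and the rise of 4.89 ± 0.51 on the log2 scale passed with an adjusted p of 0.0381. That call was lost without a filter on low counts (adjusted p = 0.0833), while the direction held without either control library (4.42 and 5.68 on the log2 scale).

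U343 RNASeq was the exception for TNFSF10. The controls had 5.20 and 4.57 CPM, miR137 replicate 1 had 2.80 CPM, below both of them, and replicate 2 had 285.9 CPM. The log2 fold change of 4.88 had an SE of 2.05 and did not pass (adjusted p = 0.167). Without replicate 1 it was 5.86 and called, and without replicate 2 it was -0.80 and called lower. Over the 16 libraries the miR-137 libraries had at least 60.8 CPM and the controls at most 7.77 CPM, with the exception of this library.

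CASP8 (hg18, chr2:201806411-201860679), which encodes the initiator caspase recruited by the TRAIL and FAS receptors, showed the same division with a smaller rise. Its level went from 43.4 and 46.9 to 92.2 and 100.5 CPM in U251 RNASeq, a log2 fold change of 1.09 ± 0.13 (adjusted p = 1.1e-05). In U343 RIPSeq it went from 26.6 and 23.1 to 67.4 and 65.2 CPM, 1.41 ± 0.10 on the log2 scale (adjusted p = 2.0e-05). The U251 RIPSeq controls were far apart at 16.5 and 34.1 CPM, both below the miR-137 libraries at 69.4 and 64.1 CPM, and the difference of 1.40 ± 0.42 was not called (adjusted p = 0.183). DESeq2 called it in the same libraries (adjusted p = 0.0311). In U343 RNASeq, 31.1 and 30.4 CPM in the controls stood beside 31.7 CPM in miR137 replicate 1 and 79.4 CPM in replicate 2, giving 0.86 ± 0.45 (adjusted p = 0.242). Without replicate 1 the difference was 1.36 and called, and without replicate 2 it was 0.05 and not called.

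FAS (hg18, chr10:90740268-90765522) changed less. In U251 RNASeq its level went from 8.69 and 9.05 to 13.2 and 15.4 CPM, a rise of 0.69 ± 0.17 on the log2 scale (adjusted p = 0.00373). In U343 RIPSeq it went from 20.4 and 18.4 to 22.5 and 28.1 CPM, and the call at 0.38 ± 0.13 (adjusted p = 0.0345) was lost when either control library or miR137 replicate 2 was left out (0.46, 0.30 and 0.21). The U251 RIPSeq values were 4.38 and 13.5 CPM in the controls and 16.2 and 18.4 CPM with miR-137, with no call (adjusted p = 0.430). In U343 RNASeq the controls had 20.4 and 16.1 CPM, miR137 replicate 1 had 7.83 CPM and replicate 2 had 18.8 CPM, so that the groups overlapped (adjusted p = 0.508). Without replicate 2 FAS was called lower, by -1.22 on the log2 scale, and without replicate 1 the difference was 0.03. FAS shares 860 bases of its span with ACTA2 on the opposite strand, and as the sources used here do not say that reads were counted by strand, its counts are uncertain.

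**Figure D1:**
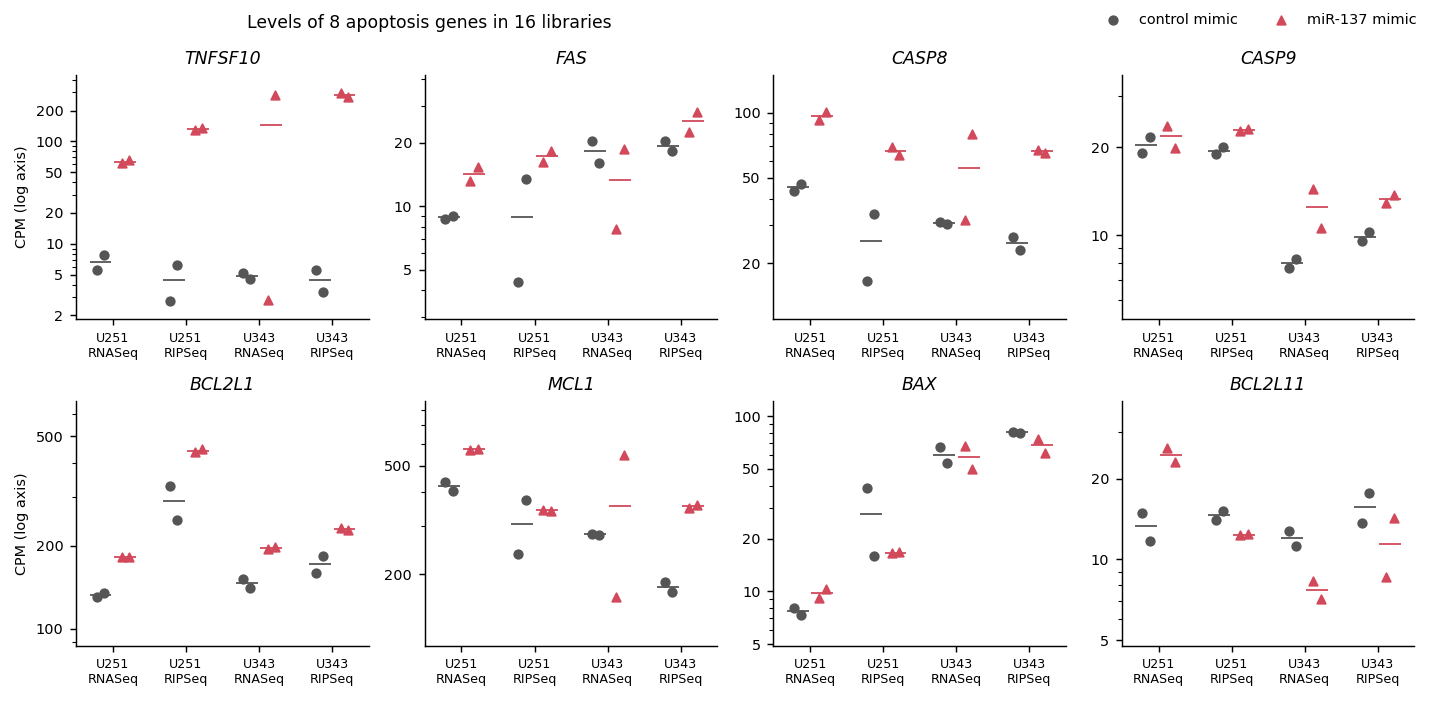
Level of each of the 8 apoptosis genes in CPM (log axis) in every library, by experiment. Grey circles are control libraries, red triangles miR-137 libraries, and horizontal lines are means of 2 libraries. In U343 RNASeq the miR-137 libraries are far apart for TNFSF10 (2.80 and 285.9 CPM), CASP8 and MCL1.

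CASP9 (hg18, chr1:15691382-15723377) encodes the caspase of the intrinsic route, activated on the apoptosome. It was called higher in U343 RIPSeq, where it went from 9.53 and 10.2 to 12.9 and 13.7 CPM (0.43 ± 0.11 on the log2 scale, adjusted p = 0.0109). The call was lost without control replicate 1 or miR137 replicate 2, both at 0.38. In U343 RNASeq the levels were 7.71 and 8.31 CPM in the controls and 14.5 and 10.6 CPM with miR-137, which did not overlap but did not pass (0.65 ± 0.20, adjusted p = 0.0925). There the higher of the miR-137 libraries was replicate 1, the one whose interferon genes were at the control level. In U251 RNASeq the groups overlapped, with 19.1 and 21.8 CPM against 23.7 and 20.0 CPM (adjusted p = 0.618). In U251 RIPSeq the controls had 19.0 and 20.1 CPM and the miR-137 libraries 22.7 and 23.2 CPM (adjusted p = 0.628).

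BCL2L1 (hg18, chr20:29715922-29774317), whose main product BCL-XL holds BAX in check, was higher with miR-137 in every library of every experiment. It was called in 3 of the 4 experiments, at 0.42 to 0.46 on the log2 scale, and each of these calls was lost under some other setting. The levels were 130.4 and 134.5 against 182.7 and 182.5 CPM in U251 RNASeq (0.46 ± 0.12 on the log2 scale, adjusted p = 0.00562). In U343 RNASeq they were 152.0 and 140.5 against 194.5 and 198.6 CPM (0.43 ± 0.10, adjusted p = 0.0465), and in U343 RIPSeq 159.0 and 184.0 against 231.6 and 228.5 CPM (0.42 ± 0.10, adjusted p = 0.00808). Without control replicate 1 the call was lost in U251 RNASeq (0.43, adjusted p = 0.0671) and in U343 RIPSeq (0.32, adjusted p = 0.0895), and in U251 RNASeq also with 1 fit over the 8 libraries of the line (0.48, adjusted p = 0.134). BCL2L1 was thus the gene of the 8 that rose in U343 RNASeq with both miR-137 libraries close together, and its call there held without either of them (0.43 and 0.41). It was lost there without either control library (0.49 and 0.37), when no gene of the table passed, with no filter on low counts (0.41) and with the replicate number as a block (0.43, adjusted p = 0.0878). In U251 RIPSeq, 331.3 and 248.6 CPM in the controls and 439.5 and 448.2 CPM with miR-137 gave 0.61 ± 0.23, which was not called (adjusted p = 0.250).

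MCL1 (hg18, chr1:148813659-148818760), a short-lived inhibitor of the same kind, rose in U251 RNASeq from 436.0 and 403.0 to 570.5 and 574.1 CPM (0.45 ± 0.13, adjusted p = 0.0117), a call that was lost without control replicate 2 (0.39). In U343 RIPSeq it rose from 188.3 and 172.5 to 351.2 and 357.8 CPM (0.97 ± 0.09, adjusted p = 1.0e-04). In U343 RNASeq the miR-137 libraries lay on either side of the controls, with 281.5 and 279.3 CPM in the controls, 164.9 CPM in replicate 1 and 545.0 CPM in replicate 2 (adjusted p = 0.708). Without replicate 1 MCL1 was called higher by 0.95, and without replicate 2 lower by -0.77. In U251 RIPSeq the controls, at 237.8 and 372.6 CPM, enclosed the miR-137 libraries at 343.9 and 342.4 CPM (adjusted p = 0.786).

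BAX (hg18, chr19:54149929-54156867), an effector that forms pores in the mitochondrial membrane, was not called in any of the 4 experiments. The levels in U251 RNASeq were 8.05 and 7.34 CPM in the controls and 9.21 and 10.3 CPM with miR-137 (0.34 ± 0.18, adjusted p = 0.124), and with upper-quartile normalization the difference was 0.48 and called. In U343 RIPSeq the direction was the opposite, with 81.6 and 80.1 against 74.4 and 61.8 CPM (-0.25 ± 0.10, adjusted p = 0.0729). In U343 RNASeq, 67.0 and 53.8 CPM stood against 67.9 and 49.8 CPM. In U251 RIPSeq the control libraries differed most, with 39.1 and 15.8 CPM against 16.5 and 16.8 CPM (adjusted p = 0.475).

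BCL2L11 (hg18, chr2:111594962-111642493) encodes BIM, a BH3-only protein that activates BAX and binds the survival proteins. In U251 RNASeq it rose from 15.0 and 11.7 to 26.1 and 23.2 CPM (0.89 ± 0.17 on the log2 scale, adjusted p = 4.8e-04). In U343 RNASeq it was lower in both miR-137 libraries, with 12.8 and 11.2 against 8.29 and 7.15 CPM (-0.64 ± 0.16, adjusted p = 0.0587), without a call. DESeq2 called that difference (adjusted p = 0.0128), and edgeR called it without either miR-137 library (-0.76 and -0.54). In U343 RIPSeq the values of 13.6 and 17.7 CPM overlapped with 8.58 and 14.3 CPM (-0.45 ± 0.23, adjusted p = 0.134). In U251 RIPSeq, 14.1 and 15.1 CPM in the controls stood against 12.3 and 12.4 CPM (-0.24 ± 0.23, adjusted p = 0.621). The test of the difference between the assays is given with the other interactions.

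**Figure D2:**
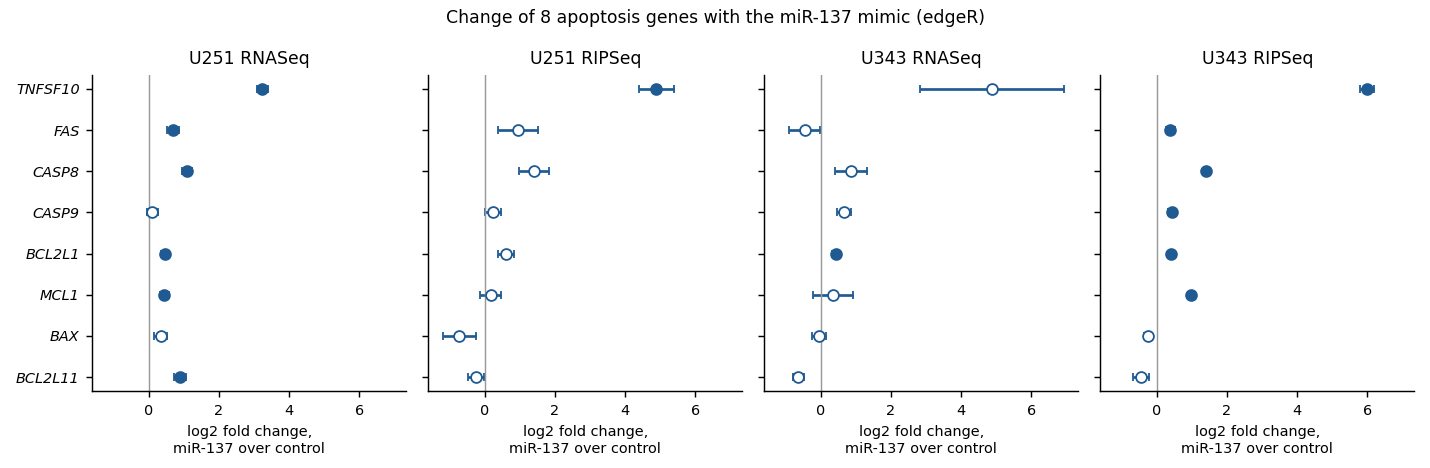
Log2 fold change of each gene, miR-137 over control mimic, with its SE as bars, in the 4 experiments. Filled circles passed the edgeR threshold and open circles did not. TNFSF10 lies between 3.24 and 5.99, with an SE of 2.05 in U343 RNASeq, and BCL2L11 is at 0.89 in U251 RNASeq and -0.64 in U343 RNASeq.

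Counted over the 8 genes, 6 rose and none fell in U251 RNASeq, where 57.7% of the 13052 genes tested passed in either direction and 28.7% were higher. In U343 RIPSeq 6 rose and none fell, against 56.3% of 14866 genes in either direction and 28.5% higher. In U251 RIPSeq 1 of 8 was called, against 1.21% of 14087 genes in either direction and 0.944% higher, and in U343 RNASeq 1 of 8, against 20.0% of 15088 genes and 8.31% higher. Most of the genes tested passed in U251 RNASeq and U343 RIPSeq, and a share of calls among 8 genes is read against that. With upper-quartile normalization in U251 RNASeq, 4588 genes were higher and 3001 lower, instead of 3749 and 3780, and the median over all genes was 0.16 in place of 0.02.

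In the experiments with libraries that stood apart, the counts moved with them. Without U343 RNASeq miR137 replicate 1, 4 of the 8 genes were called higher (TNFSF10, CASP8, BCL2L1 and MCL1) and BCL2L11 lower, when 2994 genes were higher and 3152 lower of 15509. Without replicate 2, CASP9 and BCL2L1 were higher and TNFSF10, FAS, MCL1 and BCL2L11 lower, with 2811 genes higher and 2951 lower of 15281. The genes called in both were BCL2L1, higher, and BCL2L11, lower. Without U251 RIPSeq control replicate 1, 5 of the 8 genes were higher (TNFSF10, FAS, CASP8, CASP9 and BCL2L1) and 2 lower (MCL1 and BCL2L11), and without control replicate 2, 6 were higher (the same 5 and MCL1) and BAX lower. In these fits the single remaining library is assumed to vary as the other group does, and since the U251 RIPSeq miR-137 libraries hardly differed, 4689 genes were called higher and 5052 lower in the first and 6304 and 5366 in the second. MCL1 was lower by -0.12 in the first and higher by 0.62 in the second.

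The authors' own approach compares a gene's share of reads between libraries, with Fisher's exact test for each control library against each miR-137 library, and asks for an odds ratio above 2 with an adjusted p below 0.001 in all 4 pairs. Mirrored for rises, it selected TNFSF10 and CASP8 in U251 RNASeq, U251 RIPSeq and U343 RIPSeq, where it selected 6.14%, 3.47% and 4.83% of all genes. In U343 RNASeq it selected none of the 8, against 1.51% of all genes, and TNFSF10 and CASP8 without miR137 replicate 1. For falls, the direction in which targets of a microRNA are sought, it selected none of the 8 in any experiment, against 2.21% of all genes in U251 RNASeq, 1.49% in U251 RIPSeq, 2.88% in U343 RNASeq and 3.40% in U343 RIPSeq. With libraries left out, FAS met it in U343 RNASeq without miR137 replicate 2, when 824 genes did, and BAX in U251 RIPSeq without control replicate 2, when 1372 genes did. For rises, TNFSF10 and CASP8 were selected without each library in turn in U251 RNASeq, U251 RIPSeq and U343 RIPSeq. Some of these settings added FAS, BCL2L1 or BCL2L11. With library totals scaled by TMM factors, CASP8 was lost in U251 RNASeq and U251 RIPSeq, where TNFSF10 alone was selected, and kept in U343 RIPSeq. In U251 RNASeq that scaling gave 717 genes higher and 879 lower, instead of 1248 and 448.

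The 12 interferon response genes moved with the same libraries. All 12 were called higher in U251 RNASeq, with a median log2 fold change of 6.20, 9 in U251 RIPSeq (6.51) and 11 in U343 RIPSeq (6.58), and none in U343 RNASeq, where the median was 5.17, 5 had an unadjusted p under 0.05 and DESeq2 called 8. Without miR137 replicate 1, 11 were called higher there, and without replicate 2, 3 were higher and 5 lower. In the one miR-137 library whose interferon genes were at control levels, CASP8 was near its controls, and TNFSF10, FAS and MCL1 were below both of theirs. BCL2L1 was higher and BCL2L11 lower in that library than in both controls. The part of the interferon genes in these results was not tested. In bulk RNA, fewer cells of a type and less RNA per cell cannot be told apart. Of 12 p53 targets, which include no gene of the 8, 11 were tested in U251 RNASeq, where 3 were higher and 5 lower with a median of -0.27. In U343 RIPSeq 4 were higher and 3 lower, with a median of 0.07. In U343 RNASeq none was higher and 2 were lower, and in U251 RIPSeq none was called by edgeR, where 1 had an unadjusted p under 0.05, and 1 by DESeq2.

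**Figure D3:**
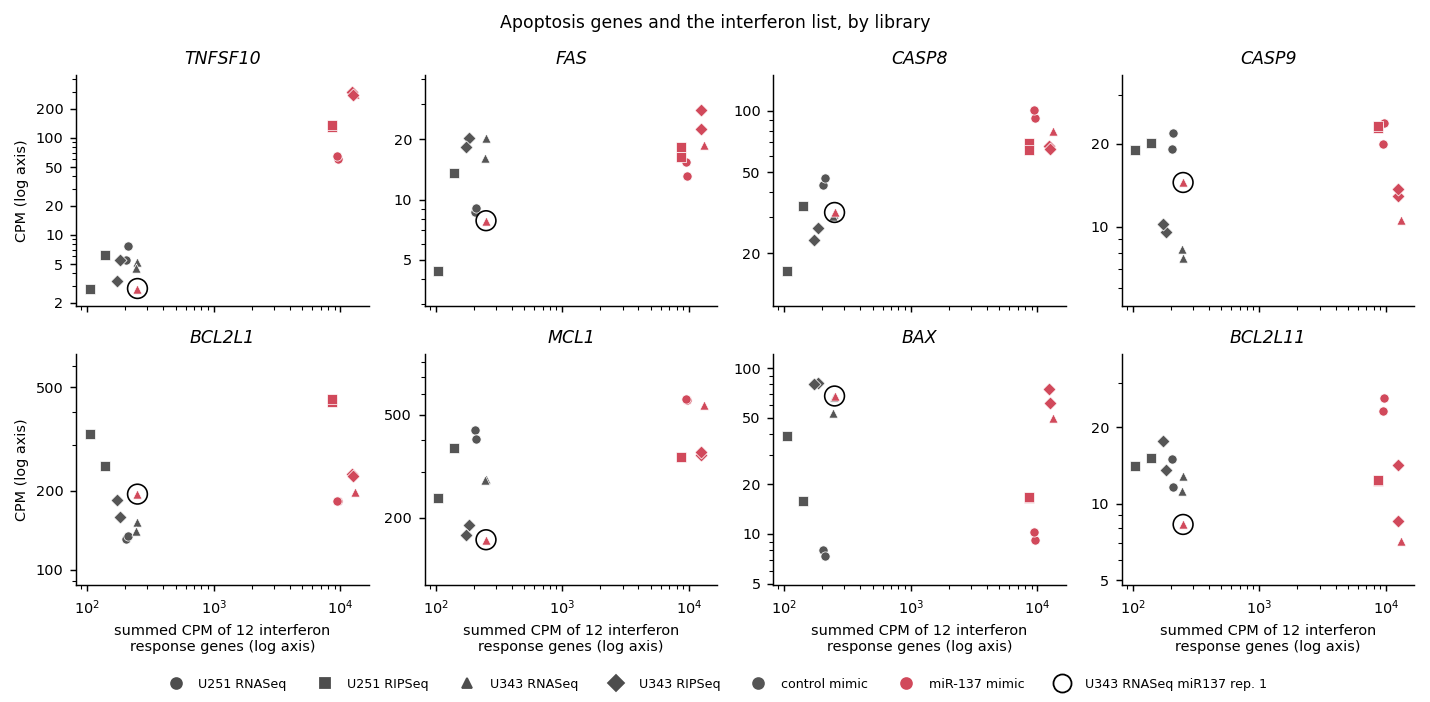
Level of each gene (CPM, log axis) against the summed level of 12 interferon response genes (CPM, log axis) in the 16 libraries, with symbols for the experiment and colours for the transfection. The circled library, U343 RNASeq miR137 replicate 1, lies with the controls on the horizontal axis (250.4 CPM), and it lies with them on the vertical axis for TNFSF10 and CASP8.

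The likeness of patterns was measured by Pearson's r over the 16 libraries, on log2 CPM centred on the mean of each experiment, among 12192 genes, and is given as a description. The points share libraries and treatments. TNFSF10 was most like HERC5 and IFIH1 (both 0.995) and SAMHD1 (0.994), and CASP8 most like NT5C3 (0.994), SAMD9 and RPS6KC1 (both 0.990). Between the 2 of them r was 0.97. With TNFSF10 and CASP8 in that order, r was 0.86 and 0.80 for MCL1, 0.77 and 0.75 for BCL2L1, and 0.65 and 0.74 for FAS. FAS was most like ARRDC3 (0.968), KBTBD2 (0.962) and DCLRE1C (0.961), and MCL1 most like TTC39B (0.968), PARP8 (0.956) and PHACTR4 (0.951). BCL2L1 came closest to STMN3 (0.977), TMEM198 (0.974) and CDK20 (0.969). The highest values were lower for CASP9 (NDRG4, 0.929), BAX (PSMC5, 0.933) and BCL2L11 (GPR39, 0.935). BAX was negatively related to FAS (-0.68) and CASP8 (-0.54), and BCL2L11 to TNFSF10 by -0.27.

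Within a library, the ratio of 2 genes does not depend on how libraries are scaled. These ratios, also those with a library left out, were added after the data were seen. The BAX to BCL2L1 ratio was lower in both miR-137 libraries than in both controls in U251 RIPSeq, U343 RNASeq and U343 RIPSeq, with mean differences of -1.21, -0.47 and -0.68 on the log2 scale. In U251 RNASeq the difference was -0.12 and the groups overlapped. With a library left out, the difference was -0.76 and -1.66 in U251 RIPSeq without control replicates 1 and 2. It was -0.71 and -0.24 in U343 RNASeq without miR137 replicates 1 and 2. The BCL2L11 to BCL2L1 ratio did not overlap in any experiment, and it was higher with miR-137 in U251 RNASeq (0.43) and lower in U251 RIPSeq (-0.87), U343 RNASeq (-1.07) and U343 RIPSeq (-0.92). Without the same libraries in the same order it was -1.13 and -0.61 in U251 RIPSeq and -1.19 and -0.95 in U343 RNASeq.

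The ratios to MCL1 differed less evenly. The BAX to MCL1 ratio was lower with miR-137, without overlap, in U251 RNASeq (-0.11) and U343 RIPSeq (-1.23), and the groups overlapped in U251 RIPSeq (-0.79) and U343 RNASeq (-0.14). It was 0.19 and -1.76 in U251 RIPSeq without control replicates 1 and 2, and -1.23 and 0.94 in U343 RNASeq without miR137 replicates 1 and 2, so that its sign there depended on 1 library. The BCL2L11 to MCL1 ratio was higher with miR-137 in U251 RNASeq (0.45) and lower in U251 RIPSeq (-0.45) and U343 RIPSeq (-1.47), without overlap, and in U343 RNASeq (-0.74) the groups overlapped. Without the same libraries it was -0.17 and -0.72 in U251 RIPSeq and -1.71 and 0.23 in U343 RNASeq. Over all genes tested, single levels did not overlap between the groups for 79.5% in U251 RNASeq, 54.8% in U251 RIPSeq, 65.7% in U343 RNASeq and 78.5% in U343 RIPSeq.

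The other genes of the pathway were followed with a list of 37 genes, of which TNF and LTA were not analysed here and FASLG, with at most 10 reads in a library, was not tested. In U251 RNASeq 13 of the 29 tested rose and 7 fell, with a median log2 fold change of 0.37 against 0.02 for all genes, of which 57.7% were called. In U343 RIPSeq 14 of 30 rose and 5 fell (median 0.23 against 0.00), where 56.3% of all genes were called, and in U343 RNASeq 4 of 32 rose and 2 fell (0.36 against 0.02), where 20.0% were. In U251 RIPSeq none of 33 was called by edgeR (median 0.14 against -0.02), against 1.21% of all genes, 9 had an unadjusted p under 0.05, and DESeq2 called 5. Without U251 RIPSeq control replicate 1, 14 of the list were higher and 9 lower, against 32.8% and 35.3% of all genes, and without control replicate 2, 19 and 7, against 40.2% and 34.2%. Without U343 RNASeq miR137 replicate 1, 14 were higher and 5 lower, against 19.3% and 20.3% of all genes, and without replicate 2, 10 and 4, against 18.4% and 19.3%. The group of receptors and adaptors, which carry the TRAIL, FAS and TNF signals, held 6 genes of 7 tested that rose in U251 RNASeq and 6 of 8 in U343 RIPSeq, where 28.7% and 28.5% of all genes were higher. In U343 RNASeq 1 of 9 rose (8.31% of all genes), in U251 RIPSeq none of 9 was called by edgeR (0.944%), and none of the group fell in any experiment. This is 1 of several role groups of the list, and others went otherwise. Of the apoptosome and mitochondrial factors none rose in any experiment. In U251 RNASeq 3 of them fell and 1 was not called, where 29% of all genes were lower. In U343 RNASeq and U343 RIPSeq 1 fell and 3 were not called, where 11.7% and 27.8% were lower.

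Among those receptors and adaptors, CFLAR, which encodes the caspase 8 inhibitor FLIP, rose in U251 RNASeq by 1.17 ± 0.16 on the log2 scale and in U343 RIPSeq by 0.65 ± 0.09. FADD, the adaptor between receptor and caspase 8, rose in U251 RNASeq (0.55), U343 RNASeq (0.73) and U343 RIPSeq (1.05), and was at -0.07 without a call in U251 RIPSeq. FADD was picked for its place beside CASP8 after its values were seen, as was the TRAIL receptor gene TNFRSF10B, which rose by 0.83 in U251 RNASeq and was at -0.11 without a call in U343 RIPSeq.

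Of the genes that fell in U343, CYCS, the gene of cytochrome c, fell by -0.80 in U343 RNASeq and -1.06 in U343 RIPSeq, and CASP6 fell by -0.65 in U343 RIPSeq. Both were also lower with miR-137 in U251 RNASeq. There CYCS had 280.4 and 352.3 against 148.2 and 185.4 CPM, and CASP6 31.9 and 32.0 against 16.9 and 22.2 CPM. In U251 RIPSeq the groups overlapped for both genes.

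In U251 RNASeq, among genes of the list whose higher group averaged 50 reads or more, the largest rises beside that of CFLAR were those of PMAIP1, the gene of the BH3-only protein NOXA (1.26 ± 0.14), and BIRC2, an inhibitor of apoptosis (1.14 ± 0.12). BID, which links caspase 8 to mitochondria, fell by -1.30 ± 0.15, and the caspase inhibitor gene XIAP by -1.18 ± 0.13. In U343 the largest rises were those of BOK and of the BH3-only genes HRK and BMF. BOK went from 0.563 and 0.264 to 5.08 and 2.85 CPM in RNASeq (3.23 ± 0.49) and rose by 2.60 ± 0.35 in RIPSeq. HRK went from 0.498 and 0.634 to 2.28 and 4.53 CPM in RNASeq (2.59 ± 0.43) and rose by 2.78 ± 0.19 in RIPSeq. BMF rose by 0.86 ± 0.17 and 1.61 ± 0.20. BOK, HRK and BMF were higher in both U343 RNASeq miR-137 libraries. The rule by which they were named required this, as it asks for 1 direction in all 4 pairs of libraries. In U343 RNASeq the calls of BOK, HRK, BMF and CYCS held without either miR-137 library and were lost without either control library, when no gene of the table passed.

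**Figure D4:**
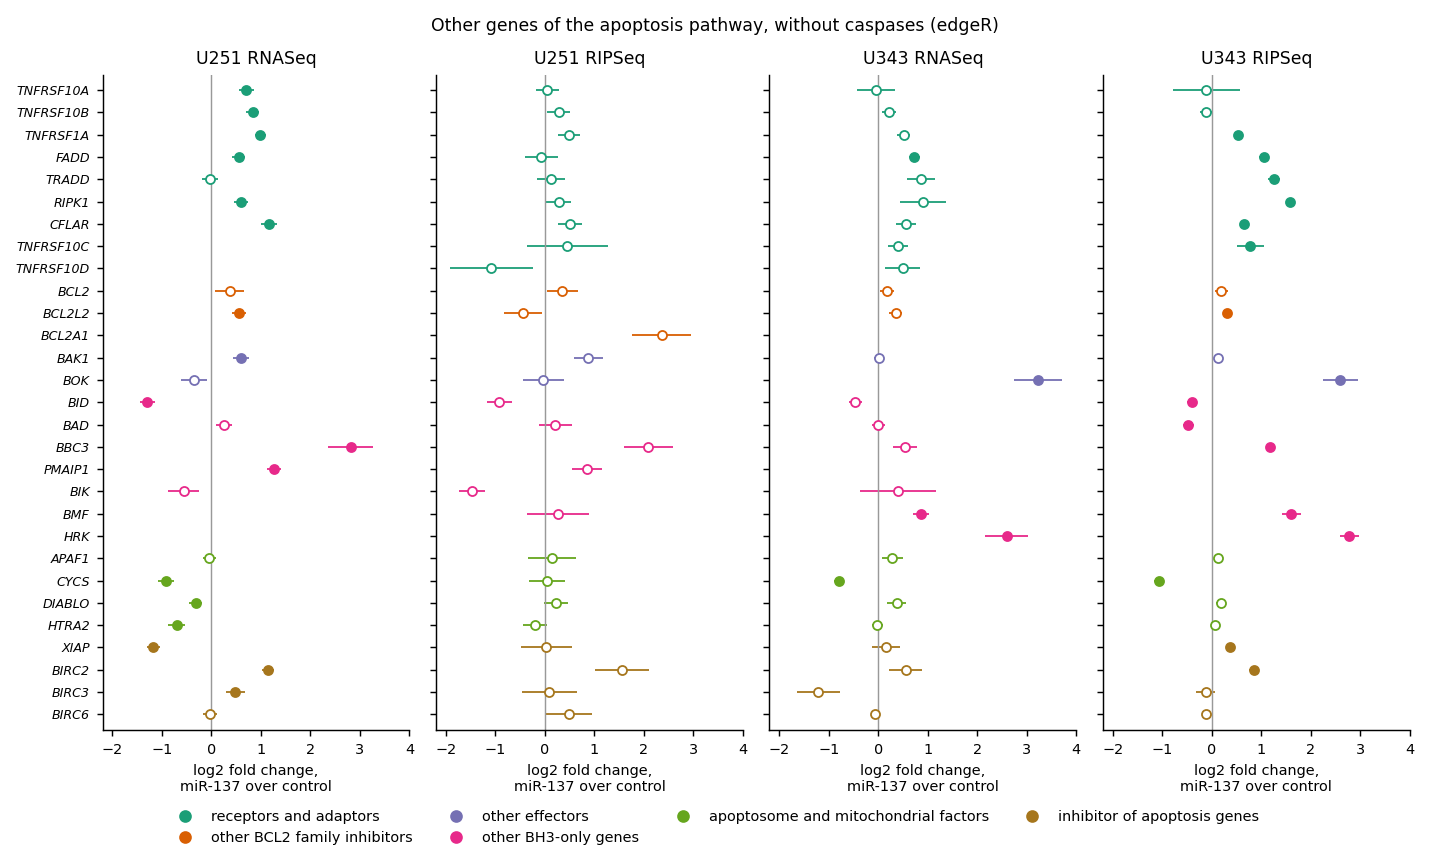
Log2 fold change, miR-137 over control mimic, with SE as bars, of the genes of the apoptosis pathway list that were tested in each experiment, coloured by role and without the caspases. Filled circles passed the edgeR threshold. BOK and HRK lie to the right in U343 (3.23 and 2.59 in RNASeq), and CYCS lies to the left in U251 RNASeq and U343.

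Whether the change differed between PABP-bound and total RNA was tested as an interaction of transfection and assay within each line. None of the 8 genes was called by edgeR in either line, where 0.134% of 14210 genes were called in U251 and 0.00649% of 15413 in U343. In U251, TNFSF10 (1.60 ± 0.49, adjusted p = 0.167) and BCL2L11 (-1.17 ± 0.28, adjusted p = 0.118) had unadjusted p-values under 0.05 (0.0111 and 0.00315), as did 18.9% of all genes. DESeq2 called these 2 genes, at 1.65 and -1.13. Without U251 RIPSeq control replicates 1 and 2 in turn, TNFSF10 was at 1.24 and 2.38 and BCL2L11 at -1.12 and -1.04. In U343 none of the 8 had an unadjusted p under 0.05, as 17.6% of all genes did, and DESeq2 called none. There the SE for TNFSF10 was 2.05. Without U343 RNASeq miR137 replicate 2, 4 of the 8 were called (TNFSF10, FAS, CASP8 and MCL1, all higher in RIPSeq), and without replicate 1 none was called.

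The difference between the lines was tested in the same way. In RNASeq BCL2L11 alone was called, with a change that was lower in U343 than in U251 by -1.54 ± 0.25 on the log2 scale (adjusted p = 0.00441), when 25.2% of 15550 genes were called. The call held without each of the 8 libraries in turn, at -1.70 to -1.36. TNFSF10 was at 2.62 without U343 RNASeq miR137 replicate 1 and at -4.05 without replicate 2. In RIPSeq none of the 8 was called by edgeR or DESeq2, against 3.28% of 15959 genes in edgeR. Among the 8 genes MCL1 (0.85 ± 0.29) had the only unadjusted p under 0.05 in edgeR (0.0206), as 21.0% of all genes did. Without U251 RIPSeq control replicates 1 and 2 in turn, MCL1 was at 1.12 and 0.46 and CASP8 at 0.47 and -0.59. The TNFSF10 difference of 1.63 in RNASeq had an SE of 1.94.

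In the control libraries, some of the 8 genes differed between assays and between lines. In U343 controls, PABP-bound RNA held more of BAX (0.53 ± 0.11 on the log2 scale), BCL2L11 (0.49 ± 0.14), CASP9 (0.41 ± 0.11) and BCL2L1 (0.34 ± 0.09) and less of MCL1 (-0.53 ± 0.08), relative to all reads, than total RNA, and 48.6% of 14878 genes were called (24.4% higher and 24.2% lower). The calls of BAX and MCL1 held without each library, and those of the others were lost without RNASeq control replicate 2 (0.40, 0.47 and 0.28 for BCL2L11, CASP9 and BCL2L1) and without RIPSeq control replicate 2 (0.29, 0.36 and 0.23). The CASP9 call was also lost without RNASeq control replicate 1 (0.35). In U251 controls BAX was called (2.00 ± 0.50, adjusted p = 0.0468), where 14.0% of 13242 genes were called. Scaled over both assays, its mean was 27.6 CPM (SD 17.4) in RIPSeq against 6.89 CPM (SD 0.504) in RNASeq. The BAX call was lost without either RNASeq control (1.91 and 1.77). BCL2L1 was next (1.29 ± 0.34, adjusted p = 0.0510). Histone transcripts, which lack a poly(A) tail, took 0.367% to 1.40% of reads in RNASeq libraries and 0.0280% to 0.0916% in RIPSeq libraries.

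**Figure D5:**
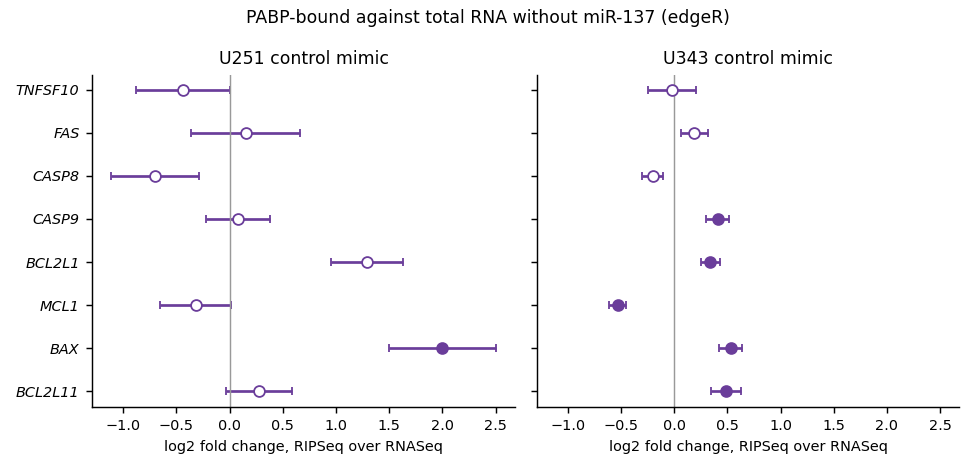
Log2 fold change of PABP-bound RNA (RIPSeq) over total RNA (RNASeq) in control libraries, with SE as bars, for U251 and U343. Filled circles passed the edgeR threshold. BAX lies to the right in both lines (2.00 and 0.53), and MCL1 lies to the left (-0.53) in U343.

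Between the control RNASeq libraries, BAX was higher in U343 than in U251 by 3.03 ± 0.15 on the log2 scale and FAS by 1.10 ± 0.16. CASP9 was lower by -1.30 ± 0.14, MCL1 by -0.53 ± 0.10 and CASP8 by -0.50 ± 0.10. TNFSF10 (-0.39), BCL2L1 (0.20) and BCL2L11 (-0.09) were not called, and 84.8% of the 14787 genes tested were (44.9% higher and 39.9% lower). BCL2L1 was called with upper-quartile normalization (0.30) and without a filter (0.25), and TNFSF10 without U251 control replicate 1 (-0.64). These differences hold the library kit as well as the cell line.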

How the data were processed

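The authors aligned reads to hg18 with RMAP, whose version is not given in the sources used here, and assigned them to a merged super-transcript for each RefSeq gene. The values deposited are raw counts without normalization, and how reads with several matches or strands were handled is not given in the sources used here. Groups follow the labels. SLC35E2 had 1 duplicate line in the U251 tables, of which the first was kept. The 8 genes and the lists were chosen with earlier results of these data known. Genes named are these 8, the 3 largest rises and falls of the apoptosis pathway list in each experiment (past the threshold, at least 50 reads on average in the higher group, 1 direction in all 4 pairs of libraries), and for each of the 8 the 3 genes with the highest correlation (prior count 2). Others are said to be chosen later, and some genes of the list are not reported here.

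Each experiment was fitted on all genes with edgeR 4.0.16 (quasi-likelihood F test, TMM normalization, filterByExpr) in R 4.3.3, with adjustment after Benjamini and Hochberg and calls at 0.05. All adjusted p-values are of this test or, where named, of DESeq2 1.42.0. Interactions used the libraries of both assays or both lines. The read-share rule used two-sided tests. Alternatives were upper-quartile normalization, no filter, a mean of at least 50 reads, a replicate block, DESeq2, 1 fit over all 8 libraries of a line, and leaving out each library. The scripts were tested on simulated data with 200 genes changed 4-fold. The edgeR fit recovered 100% of them in U251 RNASeq and U343 RIPSeq, 94.5% in U343 RNASeq and 57.5% in U251 RIPSeq. False calls were 13 of 213 in U251 RNASeq, 10 of 125 in U251 RIPSeq, 22 of 211 in U343 RNASeq and 46 of 246 in U343 RIPSeq. Calls near the threshold in U343 and missing calls in U251 RIPSeq are read with that limit. Coordinates are those of the deposited tables (hg18), and sequences are from RefSeq (GRCh38.p14).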

Additional observations from a re-analysis of the deposited data

Results flagged for a closer look

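For 4 genes the change with the miR-137 mimic differed between U251 and U343 in RNASeq, by the test of the interaction in edgeR. BCL2L11 rose in U251 and was lower without a call in U343, and the difference, U343 minus U251, was -1.54 on the log2 scale. BOK was called higher in U343 and was at -0.35 without a call in U251, with a difference of 3.56 ± 0.57 (adjusted p = 0.00401). BID, which was lower in both lines and called in U251, differed by 0.83 ± 0.21 (adjusted p = 0.0219). XIAP fell in U251 and was at 0.16 without a call in U343, and differed by 1.33 ± 0.31 (adjusted p = 0.0165). The U343 RNASeq miR-137 libraries, at 27.8 and 46.8 CPM of XIAP, lay on either side of the controls at 36.3 and 30.6 CPM. In RIPSeq the differences of BOK (2.68), BID (0.57), XIAP (0.38) and BCL2L11 (-0.16) were not called. Cell line and library kit cannot be told apart in these values.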

How the results depend on the processing

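Of 1122 recomputed values of single genes, 962 kept their direction and their side of the threshold, 65 passed it anew, 44 no longer passed and 51 changed sign, none of them called on both sides and 6 on one. The cause of these changes was not tested, except that a fit with a library left out has fewer samples. With 2 libraries a group, differences of the size of the SEs given could not be resolved, and the spread of the U251 RIPSeq controls and the U343 RNASeq miR-137 libraries limits those experiments most. The replicate numbers pair no samples by the labels, and the differences between numbers correlated by 0.03 in U251 RNASeq, 0.04 in U251 RIPSeq, 0.14 in U343 RNASeq and 0.28 in U343 RIPSeq over genes.

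Counts of calls among the 8 genes moved as follows. The counts over all genes moved too, here and with libraries left out, so these are not read as results about the 8 genes. With 1 fit over all 8 libraries of a line, 3 were called in U251 RNASeq, 2 in U251 RIPSeq, 2 in U343 RNASeq and 3 in U343 RIPSeq. Without a filter 0 were called in U251 RIPSeq, U343 RNASeq and the U251 comparison of assays. DESeq2 called 2 in U251 RIPSeq, 3 in U343 RNASeq, 2 in the U251 interaction with assay and 2 in the U251 comparison of assays. With the replicate block, 0 were called in U343 RNASeq and 2 in the U251 comparison of assays, BAX (-0.25) and BCL2L11 (-0.48) were called lower in U343 RIPSeq, and 5 genes of the pathway list were called in U251 RIPSeq. In the U251 comparison of assays, upper-quartile normalization gave 2 and a mean of at least 50 reads 0. The read-share rule selected 6 in U251 RNASeq at an odds ratio over 1.5, and 1 in U251 RNASeq and 1 in U251 RIPSeq with TMM-scaled totals. Of the pathway list the fit over 8 libraries called 9 in U251 RNASeq, 8 in U251 RIPSeq and 13 in U343 RNASeq, and DESeq2 called 5 in U251 RIPSeq and 11 in U343 RNASeq. Of the p53 targets that fit called 2 in U251 RNASeq, 1 in U251 RIPSeq and 4 in U343 RIPSeq, and DESeq2 called 1 in U251 RIPSeq. Of the interferon genes in U343 RNASeq, DESeq2 called 8 and the fit over 8 libraries 7.

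Signs changed in differences that were not called. With upper-quartile normalization these were the U251 interaction with assay for CASP9 (-0.05) and BCL2L1 (-0.06), that of U343 for BCL2L1 (0.00, as with the replicate block) and the difference of BCL2L11 between the lines (0.01). With the replicate block they were the interactions with line of TNFSF10 in RNASeq (-0.53) and CASP8 in RIPSeq (-0.02), and FAS between assays in U251 (-0.04). DESeq2 gave 0.01 for BCL2L1 in the RNASeq interaction with line, and no filter gave -0.09 for CASP9 between assays in U251.

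Leaving out each library in turn, calls among the 8 genes ranged from 1 to 7 in U251 RIPSeq, 0 to 6 in U343 RNASeq, 3 to 7 in U343 RIPSeq, 0 to 5 and 0 to 4 in the interactions with assay of U251 and U343, 1 to 6 and 0 to 4 in those with line in RNASeq and RIPSeq, and 0 to 6 and 2 to 5 between assays in U251 and U343. The read-share rule gave 2 to 4 in U251 RIPSeq and 0 to 2 in U343 RNASeq. The pathway list gave 0 to 26 in U251 RIPSeq and 0 to 19 in U343 RNASeq, the p53 targets 0 to 11 and 0 to 5 there, and the interferon genes 0 to 11 in U343 RNASeq. Of the changes with miR-137, sign changes occurred for CASP9 in U251 RNASeq (-0.02 to 0.21), for MCL1 (-0.12 to 0.62) and BAX (-1.14 to 0.07) in U251 RIPSeq, and in U343 RNASeq for TNFSF10 (-0.80 to 5.86), FAS (-1.22 to 0.03), MCL1 (-0.77 to 0.95) and BAX (-0.29 to 0.17). Of the U251 interaction with assay they occurred for FAS (-0.28 to 1.32), CASP8 (-0.07 to 0.96), BCL2L1 (-0.01 to 0.43) and MCL1 (-0.51 to 0.11), and of that in U343 for CASP9 (-0.44 to 0.03), BCL2L1 (-0.10 to 0.10), BAX (-0.44 to 0.03) and BCL2L11 (-0.22 to 0.48). In the interaction with line they occurred in RNASeq for TNFSF10 (-4.05 to 2.62), CASP8 (-1.05 to 0.27), BCL2L1 (-0.10 to 0.08) and MCL1 (-1.22 to 0.50), and in RIPSeq for FAS (-1.58 to 0.06), CASP8 (-0.59 to 0.47), BCL2L1 (-0.38 to 0.02), BAX (-0.29 to 1.00) and BCL2L11 (-0.58 to 0.14). Between assays they occurred in U251 for TNFSF10 (-1.18 to 0.00), FAS (-0.92 to 0.73), CASP9 (-0.13 to 0.09) and BCL2L11 (-0.01 to 0.35), in U343 for TNFSF10 (-0.43 to 0.29), and between the lines for BCL2L11 (-0.28 to 0.07).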
